A study of Mus musculus with 2 samples.

Results

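Expression of 40 genes of the cell cycle and of proliferation was examined in the deposited RNA-seq count tables, which list 48321 gene symbols. The genes were taken by symbol from a written list, with no measured value in the rule, and all 40 were found in both tables. They fall into 12 mitosis genes, 10 genes of DNA replication and nucleotide supply, 8 cyclins and kinases of G1 and of the G1/S transition, 4 genes for E2F factors and Rb, 4 inhibitors of cyclin-dependent kinases (CDKs) and 2 antiproliferative BTG genes.

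The study asked how constitutive expression of the co-receptor CD8 affects the development of T cells selected by MHC class I. The series holds 2 libraries, replicates 1 and 2 of a single group, mature thymocytes from mice of genotype MHC-II0:CD8ab Tg on the C57Bl/6 background. These mice lack the MHC class II chain I-Ab, carry *Cd8*-null alleles from which the coding regions of both endogenous CD8 chains are lost, and express CD8α and CD8β from cDNAs placed in the *Rosa26* locus, which are switched on by Cd4-Cre, active in thymocytes from about the CD4+CD8+ stage. The study sorted CD4- mature thymocytes by low CD24 and high TCRβ. It described a large part of these cells, though not all, as innate memory-like CD8 T cells, from their CD44 and CD122. The libraries thus come from a mixed population, and the part of each kind of cell in the levels below was not tested. The sample titles call the cells CD4-CD8-, whereas the cell type field calls them CD8+. The labels do not say how many animals each replicate came from. Counts of *Xist* and *Ddx3y*, given with the differences between the replicates, show that the libraries were not repeats of 1 RNA sample. Wild-type libraries were not analysed here. With a single genotype, the levels below describe these cells and compare no genotypes.

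A cell that divides passes from G1, through DNA synthesis in S phase, to G2 and mitosis. D-type cyclins with CDK4 and CDK6, and then E-type cyclins with CDK2, phosphorylate the Rb protein and release E2F factors, which drive genes for DNA synthesis. Genes for mitosis come later, and many of them are repressed in resting cells by a complex that binds CHR elements in their promoters. CDK inhibitors of the p21/p27 and INK4 families hold these kinases in check. In the thymus, division is most active in early progenitors and after β-selection, whereas mature thymocytes before export are largely at rest, apart from a late round of expansion that some of them undergo.

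Counts on genes numbered 16732644 in replicate 1 and 16245849 in replicate 2, so that 3 counts corresponded to 0.179 and 0.185 CPM (counts per 1000000 counts on genes). Only 40.6% and 41.2% of the uniquely aligned reads were counted on genes, and 55.9% in each library were assigned to no gene. Since the strand setting of the counting is not given, it cannot be said that these reads lay outside genes. All intervals given for single libraries are Wilson 95% intervals of the share of counts and cover counting error only. The identity of the cells was checked against marker lists. All 13 mature αβ T cell markers were at 1 CPM or more in both libraries, between 108 and 758 CPM. Markers of immature thymocytes summed to 49.4 and 47.0 CPM over 10 genes, and 6 of them were at 1 CPM or more in both libraries. *Cd1d1* (426 and 360 counts) and *Dntt* (224 and 211 counts) carried most of this sum. *Rag1* (8 and 19 counts), *Rag2* (4 and 1 counts), *Ptcra* (2 and 2 counts) and *Cd4* (12 and 27 counts) were lower. B cell markers summed to 13.5 and 15.2 CPM over 5 genes, mostly *Cd79b* (196 and 227 counts), with *Cd79a* at 21 and 15 counts and *Pax5* at 1 and 0 counts. Myeloid markers summed to 12.1 and 13.7 CPM over 6 genes, mostly *Csf1r* (163 and 191 counts), with *Lyz2* at 0 and 2 counts. Thymic epithelium markers summed to 3.71 and 4.19 CPM over 5 genes, mostly *Epcam* (50 and 53 counts), with *Foxn1* at 1 and 0 counts. Erythroid markers summed to 0.478 and 0.616 CPM. Transcripts of some markers of other cell types were thus present at low level, and their part in the levels below was not tested.

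Promoters of the genes were read from RefSeq on GRCm38.p6, from 250 bases before to 50 bases after each start, and were found for 32 of the 40 genes. They are shown because genes of S phase and of mitosis are known targets of different promoter elements. Whether these elements bear on the levels below was not tested. Searches used both strands for E2F sites (TTTGGCGC, TTTCCCGC, TTTGCCGC or TTTCGCGC), the CHR (TTTGAA), the CCAAT box and the Sp1-type GC box (GGGCGG), and overlapping matches were allowed. Of the replication genes, *Mcm5* and *Mcm6*, which encode subunits of the MCM2-7 replicative helicase, are shown; of the mitosis genes, *Ccnb2* (cyclin B2) and *Cdk1* (the mitotic kinase); and of the CDK inhibitors, *Cdkn1b* (p27Kip1). Each line gives the 168 bases that end just before the RefSeq start, 5′ to 3′ on the strand of the gene, and capitals mark matches to the E2F, CHR and CCAAT letters. The stretches lie at chr8:75109341-75109508 (+) for *Mcm5*, chr1:128359706-128359873 (-) for *Mcm6*, chr9:70421555-70421722 (-) for *Ccnb2*, chr10:69352913-69353080 (-) for *Cdk1* and chr6:134920233-134920400 (+) for *Cdkn1b*.
Mcm5: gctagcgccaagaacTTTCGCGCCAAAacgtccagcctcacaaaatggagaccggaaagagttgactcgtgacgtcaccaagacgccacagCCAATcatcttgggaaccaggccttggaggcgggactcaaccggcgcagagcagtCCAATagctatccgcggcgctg
Mcm6: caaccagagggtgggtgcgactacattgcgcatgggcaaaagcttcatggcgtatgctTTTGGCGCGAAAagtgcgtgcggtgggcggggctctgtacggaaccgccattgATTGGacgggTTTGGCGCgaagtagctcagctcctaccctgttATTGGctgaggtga
Ccnb2: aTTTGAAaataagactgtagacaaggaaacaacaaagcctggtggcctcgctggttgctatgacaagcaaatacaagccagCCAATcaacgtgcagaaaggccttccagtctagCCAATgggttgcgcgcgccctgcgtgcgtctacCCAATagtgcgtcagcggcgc
Cdk1: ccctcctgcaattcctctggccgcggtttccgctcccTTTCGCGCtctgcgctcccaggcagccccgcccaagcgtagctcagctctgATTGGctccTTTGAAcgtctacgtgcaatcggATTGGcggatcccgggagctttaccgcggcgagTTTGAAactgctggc
Cdkn1b: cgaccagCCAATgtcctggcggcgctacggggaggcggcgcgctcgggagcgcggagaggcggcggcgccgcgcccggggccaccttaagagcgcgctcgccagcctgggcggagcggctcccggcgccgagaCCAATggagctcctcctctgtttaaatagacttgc

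The *Mcm5* stretch held 2 E2F matches that overlap on opposite strands, 153 and 149 bases upstream of the start. In *Mcm6*, an overlapping pair lay 110 and 106 bases upstream and a further match 47 bases upstream. *Ccnb2* held no E2F match, a CHR match at 167 and 3 CCAAT boxes at 87, 54 and 21 bases upstream. A second CHR match of *Ccnb2* began 4 bases after the start, beyond the printed stretch. *Cdk1* held an E2F match at 131 and CHR matches at 71 and 15 bases upstream. *Cdkn1b* held CCAAT boxes at 161 and 35 bases upstream and neither E2F nor CHR letters.

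E2F letters were present in 7 of the 32 matched genes (21.9%), namely *Cdk1*, *Mcm3*, *Mcm5*, *Mcm6*, *Mcm7*, *Cdk2* and *E2f2*. They were present in 2.26% of all 32851 promoters of the same length. Counted by gene, as for the members, the share was 2.6% of all 27025 genes. It was 4.94% of 8759 genes at 1 CPM or more in both libraries. CHR letters were present in 9 genes (28.1%), against 20.2% of all genes and 14.3% of expressed genes. They lay in 7 of the 10 matched mitosis genes (*Mki67*, *Top2a*, *Cdk1*, *Ccnb2*, *Aurka*, *Plk1* and *Cdc20*) and in 1 of the 9 matched replication genes (*Mcm2*). The CCAAT box was found in 25 genes (78.1%, against 41.1% of all genes and 42.9% of expressed genes). The GC box was found in 28 genes (87.5%, against 38.2% and 68.3%). Both were present in mitosis and replication genes alike. None of the 4 CDK inhibitors held E2F or CHR letters in this window. A match describes letters only, and binding was not measured.

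**Figure D1:**
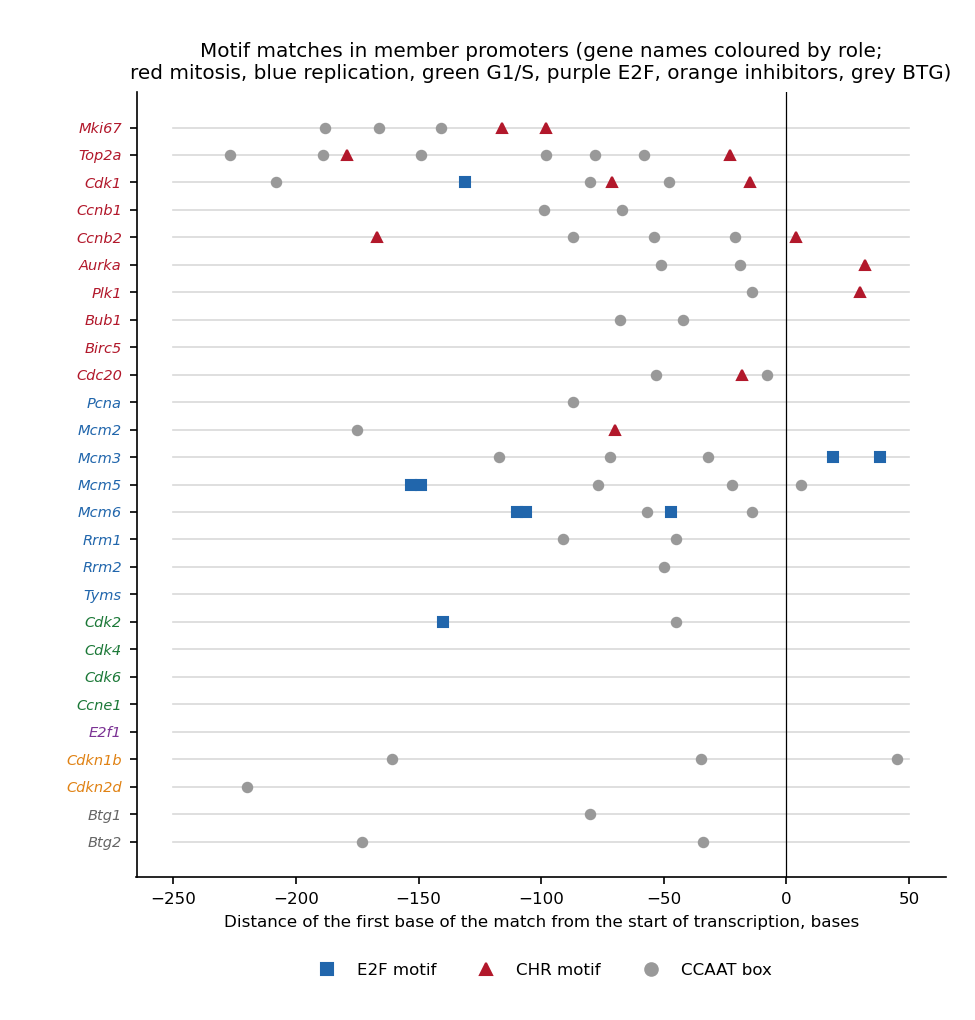
Positions of E2F letters (squares), CHR letters (triangles) and CCAAT boxes (circles) in the promoters of the 27 genes with a single RefSeq promoter, in bases from the start of transcription (x axis), 1 row per gene, grouped and coloured by list. CHR letters appear mostly in rows of mitosis genes and E2F letters mostly in rows of MCM genes.

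Transcripts of all 12 mitosis genes were detected, most at low level. *Mki67*, which encodes the Ki-67 protein that coats mitotic chromosomes and marks cycling cells, had levels of 77.4 and 84.6 CPM in replicates 1 and 2 (81.0 ± 5.12, SD, n = 2). *Top2a*, the topoisomerase that untangles sister chromatids, was at 49.5 and 55.9 CPM. These were the only mitosis genes at 40 CPM or more in both libraries, and 8 of the 12 were under 10 CPM in both.

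The kinase gene *Cdk1* was at 2.93 and 4.12 CPM (49 and 67 counts). Its partners differed in level. *Ccna2* (cyclin A2) was at 12.3 and 11.7 CPM, *Ccnb2* at 11.3 and 12.6 CPM and *Ccnb1* (cyclin B1) at 1.49 and 1.72 CPM. *Ccna2* shares 510 bases of exon with *Exosc9* on the opposite strand, which had 418 and 358 counts, so the level of *Ccna2* is uncertain. The 2 Wilson intervals of *Ccnb1*, 1.01 to 2.21 and 1.19 to 2.49 CPM, overlapped over most of their length. Per kb of exon, *Ccnb2* made up 95.3% ± 0.101 of the B-type cyclin level and *Ccnb1* the remaining 4.65%, a difference far larger than the spread between the replicates. Of the 50-base stretches of *Ccnb1* transcripts, 23.4% also occur in transcripts of other genes, *Ccnb1-ps* among them, so reads from there could not be placed uniquely and the level of *Ccnb1* is uncertain.

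Among the regulators of the spindle, *Aurka* and *Aurkb*, the Aurora kinases of the centrosome and the inner centromere, were at 3.17 and 3.51 CPM and at 2.45 and 3.69 CPM. *Plk1*, the polo-like kinase, was at 2.21 and 3.20 CPM, and *Bub1*, a spindle checkpoint kinase, at 2.15 and 2.28 CPM. For *Aurkb* the log2 ratio of replicate 2 to replicate 1 was 0.59, and with 41 and 60 counts it did not pass the exact binomial test (adjusted p = 0.171). *Birc5*, or survivin, which acts with Aurora B, was at 5.44 and 7.57 CPM, and *Cdc20*, an activator of the anaphase-promoting complex, at 9.02 and 8.56 CPM. In bulk samples, fewer cycling cells and less RNA per cell cannot be told apart, so these levels give no share of dividing cells.

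**Figure D2:**
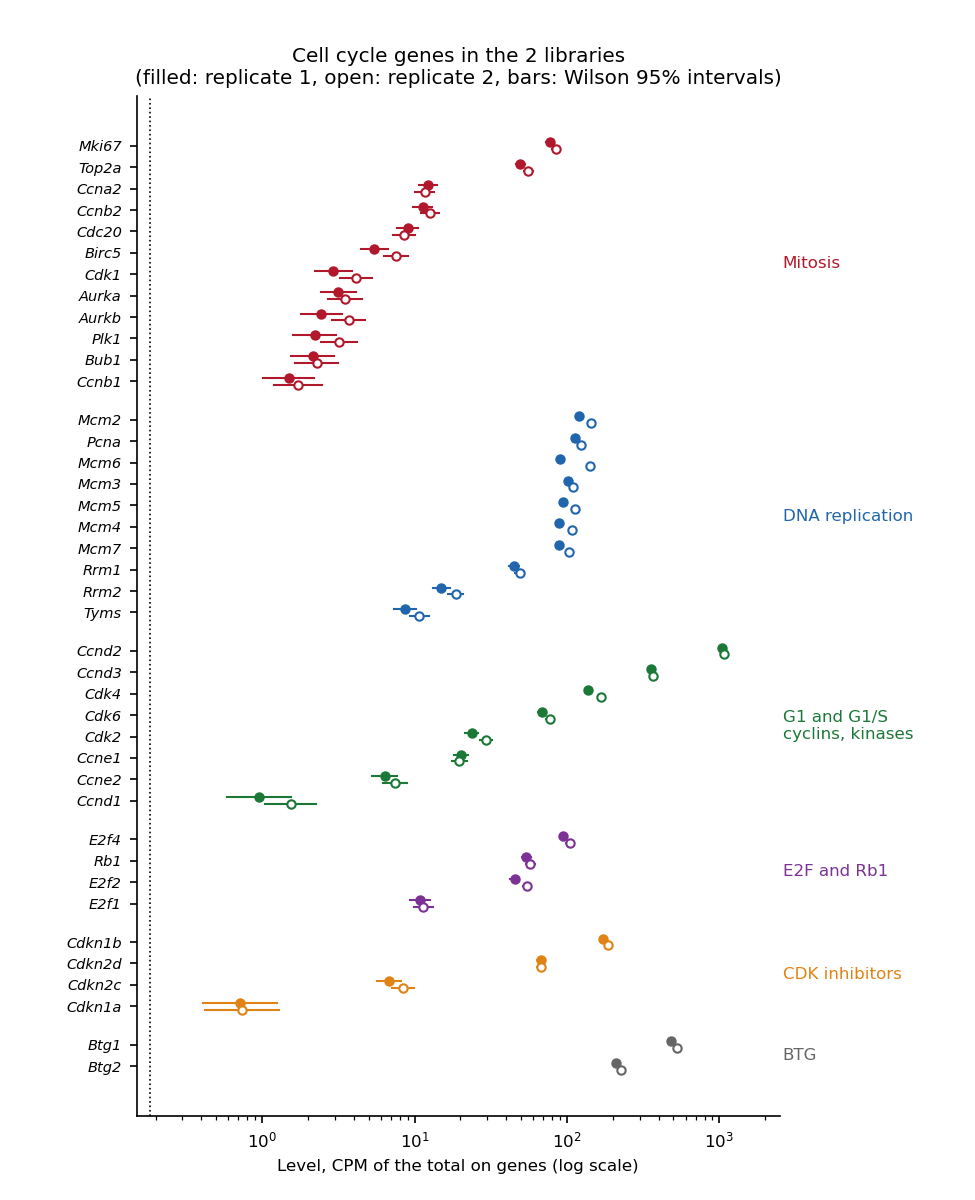
CPM (x axis, log scale) of the 40 genes in replicate 1 (filled) and replicate 2 (open), grouped by list, with Wilson 95% intervals as bars and a dotted line at the floor of 3 counts. The mitosis genes lie mostly under 10 CPM, the MCM genes near 100 CPM, and *Ccnd2* at 1039 and 1080.2 CPM is the highest.

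In the replication list, *Pcna* and the MCM genes stood at far higher levels than most mitosis genes. *Pcna*, the sliding clamp of DNA polymerases, was at 114 and 124 CPM. The helicase subunit *Mcm2* was at 121 and 144 CPM and *Mcm3* at 102 and 110.2 CPM. *Mcm4* was at 89.3 and 108 CPM, *Mcm5* at 94.3 and 113 CPM, and *Mcm7* at 89.0 and 104 CPM. *Mcm6* was the member of the complex with the widest spread, at 90.2 and 141 CPM. All 6 were thus higher in replicate 2. Since the subunits form a hexamer of 1 copy each, their levels were also compared per kb of exon, where they ranged from 19.0 ± 2.38 CPM per kb (*Mcm2*) to 28.3 ± 1.56 (*Mcm3*), a ratio of 1.48. Divided instead by the length of the longest protein-coding transcript, the lowest was *Mcm6* and the highest *Mcm2*, again with a ratio of 1.48. The order of the subunits therefore depends on the transcript length chosen, and the narrow range does not. About 23.3% of the 50-base stretches of *Mcm7* are shared with other genes, in part the overlapping *Ap4m1* and *Cops6*.

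The genes of nucleotide supply were lower than the MCM genes. *Rrm1*, the large subunit of ribonucleotide reductase, was at 44.9 and 49.1 CPM (4.27 ± 0.268 CPM per kb). *Rrm2*, its small subunit, was at 15.0 and 18.7 CPM (6.07 ± 0.931 CPM per kb). *Tyms*, thymidylate synthase, was at 8.67 and 10.8 CPM and was the lowest of the group per kb (1.60 ± 0.245). The ratio of *Rrm1* to *Rrm2* was 0.708 ± 0.0645 per kb of exon but 1.54 ± 0.141 with the longest coding transcript, so it cannot be said which subunit was the more abundant.

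Levels of the groups were then compared per kb. The median of the 10 replication genes was 19.7 and 25.9 CPM per kb in the replicates, and that of the 12 mitosis genes was 1.43 and 1.84 CPM per kb. The ratio of the medians was 13.8 in replicate 1 and 14.1 in replicate 2 (14.0 ± 0.171) and was 15.9 with the longest coding transcript. The replication median falls among the MCM genes, and *Rrm1*, *Rrm2* and *Tyms* lay far below it. Of the 12 mitosis genes, 8 lay below every replication gene other than *Tyms*, and the other 4 were *Mki67* (8.05 ± 0.509 CPM per kb), *Ccnb2* (7.81 ± 0.611), *Top2a* (5.85 ± 0.503) and *Cdc20* (4.71 ± 0.177). Against the 10376 protein-coding genes at 1 CPM or more in both libraries, *Pcna* lay above 93.4% and *Mcm3* above 86.1%, whereas *Cdk1* lay above 7.56%, *Bub1* above 4.96% and *Ccnb1* above 3.19%.

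**Figure D3:**
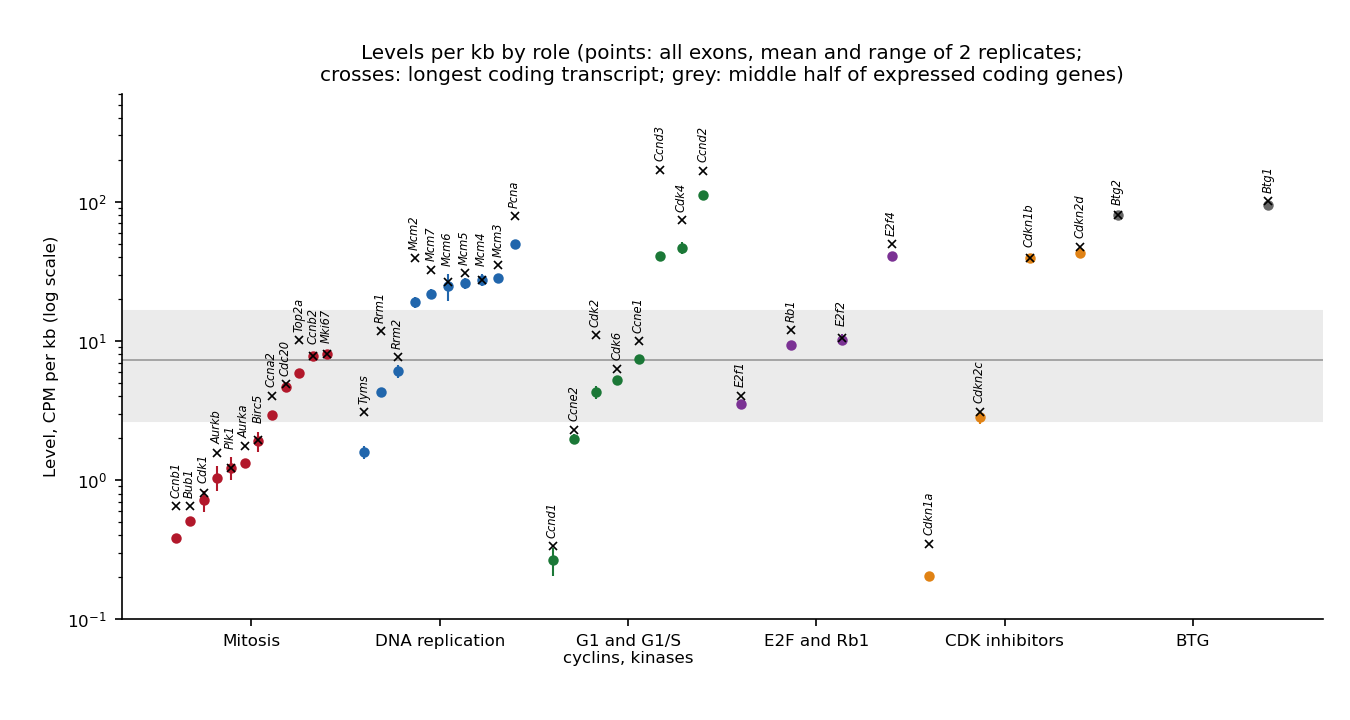
CPM per kb (y axis, log scale) of the 40 genes by list, with points for the mean and bars for the range of both replicates over exon unions, crosses for the longest coding transcript, and the grey band and line for the middle quartiles and median of expressed protein-coding genes. The median of the replication genes is 22.8 CPM per kb and that of the mitosis genes 1.63, while *Cdkn1b* (39.5) and *Cdkn2d* (43.1) lie with the highest replication genes.

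Among the G1 cyclins, *Ccnd2* (cyclin D2, chr6:127125162-127152193, minus strand) was the highest of all 40 genes per kb of exon union, although not with the longest coding transcript, with 17379 and 17548 counts or 1039 and 1080.2 CPM. Its level of 113 ± 3.12 CPM per kb of exon lay above 97.5% of expressed protein-coding genes. *Ccnd3* (cyclin D3), which thymocytes need for expansion after β-selection, was at 355 and 366 CPM. *Ccnd1* (cyclin D1) was near the detection limit, with 16 and 25 counts or 0.956 and 1.54 CPM, and its intervals of 0.589 to 1.55 and 1.04 to 2.27 CPM overlapped. Moreover, 21.6% of its 50-base stretches also lie in a gene that overlaps it on the opposite strand.

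Per kb of exon, *Ccnd2* made up 73.1% ± 0.0722 of the summed D-type cyclins, *Ccnd3* 26.7% ± 0.124 and *Ccnd1* 0.171% ± 0.0523. The order of the first pair rests on length, since the exons of all *Ccnd3* transcripts cover 8775 bases and its longest coding transcript 2113. With the latter, the ratio of *Ccnd2* to *Ccnd3* changed from 2.74 ± 0.0155 to 0.981 ± 0.00555, with *Ccnd3* at 50.4% and *Ccnd2* at 49.5%. The very low share of *Ccnd1* held for both lengths (0.0982% with the longest coding transcript). The E-type cyclins, which act at the entry to S phase, were lower. *Ccne1* was at 20.1 and 19.7 CPM and *Ccne2* at 6.39 and 7.45 CPM, and *Ccne1* made up 79.1% ± 2.01 of them. *Ccne2* shares 609 bases of exon with *Ints8* on the opposite strand, which had 845 and 884 counts against 107 and 121 for *Ccne2*. The level of *Ccne2*, its share and sums that include it are thus uncertain. Summed per kb, D-type cyclins exceeded E-type cyclins 16.3-fold ± 0.243 and A- and B-type cyclins 13.8-fold ± 0.305 (27.6-fold and 27.1-fold with the longest coding transcript).

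The kinases showed a similar order. *Cdk4*, a partner of D-type cyclins, was at 137 and 167 CPM (46.8 ± 6.63 CPM per kb). *Cdk6*, the other partner, was at 68.3 and 77.3 CPM, which over its long transcripts is 5.20 ± 0.455 CPM per kb. *Cdk2*, the partner of cyclins E and A, was at 23.7 and 29.4 CPM (4.26 ± 0.648 CPM per kb). Per kb, *Cdk4* made up 83.2% ± 0.353 of the 3 interphase kinases, *Cdk6* 9.27% ± 0.465 and *Cdk2* 7.56% ± 0.112. The order of the latter pair turned with the longest coding transcript, where *Cdk4* took 81.0%, *Cdk6* 6.93% and *Cdk2* the larger remainder. *Cdk4* exceeded *Cdk1* 66.3-fold ± 6.63 per kb. *Cdk4* shares 641 bases of exon with *Tspan31* on the opposite strand, which had 410 and 541 counts. The sources used here do not give the strand setting of the counting, so reads from the shared part may belong to either gene.

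**Figure D4:**
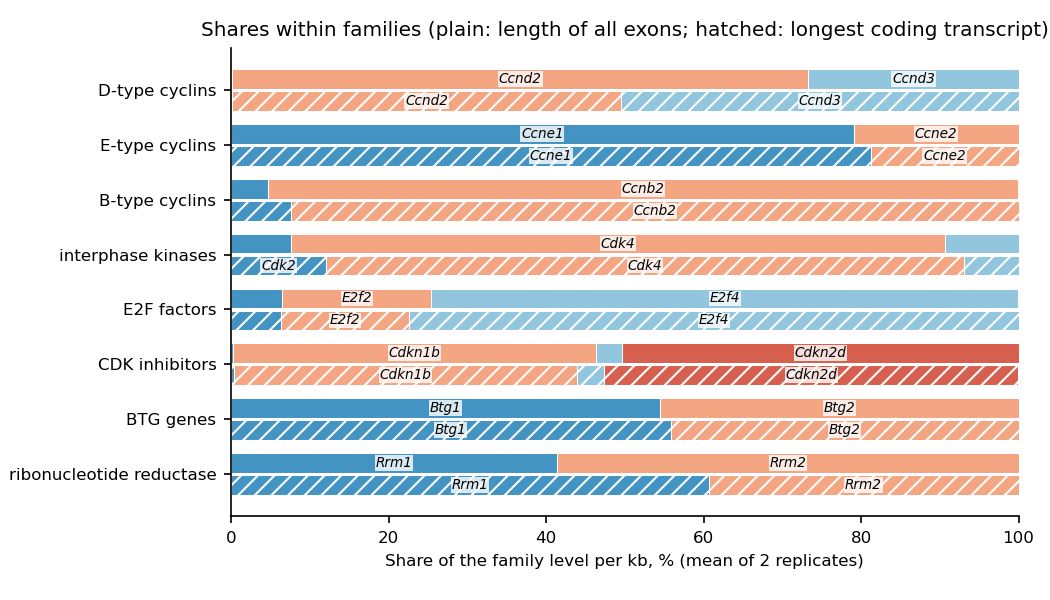
Share (percent) of each member in the summed CPM per kb of its family, as the mean of both replicates, for exon unions (plain bars) and for the longest coding transcript (hatched bars), with the smallest segments left without a name. *Cdk4* and *Ccnb2* take over 80% with either length, whereas *Ccnd2* and *Ccnd3* change from 73.1% and 26.7% to 49.5% and 50.4%.

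Of the E2F factors, *E2f4*, which mainly represses together with pocket proteins in resting cells, was the highest, at 94.4 and 104 CPM (40.5 ± 2.79 CPM per kb). The activator *E2f2*, which restrains T cell proliferation in mice, was at 45.3 and 54.7 CPM (10.2 ± 1.36). *E2f1*, the other activator in the list, was at 10.9 and 11.4 CPM (3.54 ± 0.128). Per kb *E2f4* made up 74.6% ± 0.750 of the 3 factors, *E2f2* 18.8% ± 1.03 and *E2f1* 6.53% ± 0.279, and this order held for both lengths. *Rb1*, the pocket protein that binds activator E2Fs, was at 54.1 and 57.6 CPM (9.29 ± 0.408 CPM per kb). Its exons overlap 896 bases of *Lpar6* and *Rcbtb2* on the opposite strand, which had 1257 and 1191 counts and 1054 and 1026 counts.

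The CDK inhibitors fell into a high pair and a low pair. *Cdkn1b* (p27Kip1, chr6:134920401-134925513, plus strand), an inhibitor of CDK2 complexes that maintains quiescence, was at 173 and 187 CPM (39.5 ± 2.30 CPM per kb). *Cdkn2d* (p19Ink4d), an INK4 inhibitor of CDK4 and CDK6, was at 67.9 and 67.8 CPM (43.1 ± 0.0539 CPM per kb). The levels of this pair per kb differed little, with a ratio of 0.917 ± 0.0546. *Cdkn2c* (p18Ink4c), of the same INK4 family, was at 6.81 and 8.43 CPM (2.84 ± 0.426 CPM per kb). *Cdkn1a* (p21Cip1), a target of p53, had 12 counts in each library, or 0.717 and 0.739 CPM, with intervals of 0.410 to 1.25 and 0.423 to 1.29 CPM. Per kb, *Cdkn2d* made up 50.3% ± 1.64 of the 4 inhibitors, *Cdkn1b* 46.1% ± 1.25, *Cdkn2c* 3.31% ± 0.394 and *Cdkn1a* 0.239% ± 0.00249.

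The inhibitors were compared with the 22 proliferation genes, which are the mitosis and replication lists together. *Cdkn1b* and *Cdkn2d* each lay above 21 of the 22 per kb of exon in both libraries, the exception being *Pcna*. Over the longest coding transcript, *Cdkn1b* lay above 20 of them in both libraries and *Cdkn2d* above 21. *Cdkn2c* lay above 8 of them and *Cdkn1a* above 0. The median of the inhibitors was 20.2 and 22.2 CPM per kb, 3.95 and 4.11 times the median of the proliferation genes (4.03 ± 0.114). By contrast, the summed level of the 4 inhibitors was 0.372 and 0.330 times that of the 22 proliferation genes. With the longest coding transcript these became 2.77 ± 0.130 and 0.271 ± 0.0217. The median of the inhibitors falls in the gap between the high pair and the low pair, and it depends on which genes were listed. Outside the list, the inhibitor genes *Cdkn1c*, *Cdkn2a* and *Cdkn2b* were at only 0.0892, 0.181 and 0.0430 CPM per kb. *Cdkn1b* exceeded *Cdk2*, the kinase gene whose product it inhibits, 9.34-fold ± 0.878 per kb (3.61-fold with the longest coding transcript). The ratios given here are taken within a library and do not depend on its total, whereas the levels in CPM per kb do.

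The BTG genes, whose products recruit deadenylases to transcripts and act against proliferation, were among the most abundant of the 40. *Btg1* was at 479 and 531 CPM (95.7 ± 6.97 CPM per kb), above 97.1% of expressed protein-coding genes per kb. *Btg2* was at 210.5 and 227 CPM (79.8 ± 4.37 CPM per kb), above 96.4%. Together they exceeded the summed CDK inhibitors 2.05-fold ± 0.0683 per kb.

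Differences between the replicates were tested by a two-sided exact binomial test of each gene, with Benjamini-Hochberg adjustment over the 15949 genes with at least 10 counts. The test compares these 2 libraries and not conditions. None of the 40 genes both passed at an adjusted p of 0.05 and differed by 2-fold or more, against 1.52% of all genes tested, although 21 of the 40, and 4410 of the 15949 genes tested, had an unadjusted p under 0.05. Without the fold minimum, 15 of the 40 passed, against 16.3% of all genes, and all of them were higher in replicate 2. These were *Pcna*, *Mcm2*, *Mcm4*, *Mcm5*, *Mcm6*, *Mcm7*, *Cdk2*, *Cdk4*, *Cdk6*, *Ccnd2*, *E2f2*, *E2f4*, *Cdkn1b*, *Btg1* and *Btg2*. Many are genes of high counts, for which the test detects small ratios, such as the 1.04-fold difference of *Ccnd2* (adjusted p = 0.00313, exact binomial test). Regardless of the test, 36 of the 40 were higher in replicate 2, against 65.4% of all genes, and *Ccna2*, *Cdc20*, *Ccne1* and *Cdkn2d* were higher in replicate 1. The exact test of edgeR was run with a fixed replicate variation (BCV) of 0.1, close to the 0.0960 estimated from these replicates. It called 0 of the 40, with or without the fold minimum. Over all genes tested it called 60 at 2-fold and 74 at any fold. The variation used is about that between the same 2 libraries, so the test had little room to call a gene. Its result does not show that the 40 genes were alike in the replicates.

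*Mcm6* (chr1:128331590-128359664, minus strand) differed most among the genes that passed. Its 1510 counts in replicate 1 and 2294 in replicate 2 gave intervals of 85.8 to 94.9 and 135.5 to 147 CPM, which lie well apart. The ratio was 1.56-fold (log2 0.65, adjusted p = 4.87e-40, exact binomial test) and became 1.48-fold with TMM library sizes. For the other MCM genes the log2 ratio lay between 0.11 (*Mcm3*, which did not pass, adjusted p = 0.101, exact binomial test) and 0.27 (*Mcm4*). Only 0.472% of the 50-base stretches of *Mcm6* occur in another gene.

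The count of genes that passed depended on how the libraries were scaled. Under TMM library sizes 49.5% of all genes were higher in replicate 2, and 7 of the 40 genes passed at any fold (*Mcm2*, *Mcm4*, *Mcm5*, *Mcm6*, *Mcm7*, *Cdk4* and *Btg1*), against 10.6% of all genes. Under that scaling 32 of the 40 were higher in replicate 2. All 10 replication genes were higher in replicate 2 under each of the 4 scalings tried. Their median log2 ratio was 0.26 (0.18 with TMM), that of all genes tested was 0.08 (-0.00 with TMM), and those of the mitosis genes and of the CDK inhibitors were 0.17 and 0.08 (0.09 and 0.00 with TMM).

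Other measures moved with the replicates. Ribosomal DNA genes took 13.6% of counts in replicate 1 and 10.8% in replicate 2. *Xist*, which is transcribed from the inactive X chromosome, had 34 and 25266 counts, and *Ddx3y*, on the Y chromosome, 2450 and 0 counts. The labels give no sex, but these counts are those of male cells in replicate 1 and of female cells in replicate 2. The summed mature T cell markers were 4848 and 4449 CPM, with 7 of the 13 lower in replicate 2 by the exact binomial test and 0 higher, against 450 lower of the 15949 genes tested. With TMM library sizes 11 of the 13 were lower, against 876 of all genes. The summed immature thymocyte markers were 49.4 and 47.0 CPM. The part of these measures in the higher replication genes of replicate 2 was not tested, and with 1 library each, sex and library cannot be told apart.

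**Figure D5:**
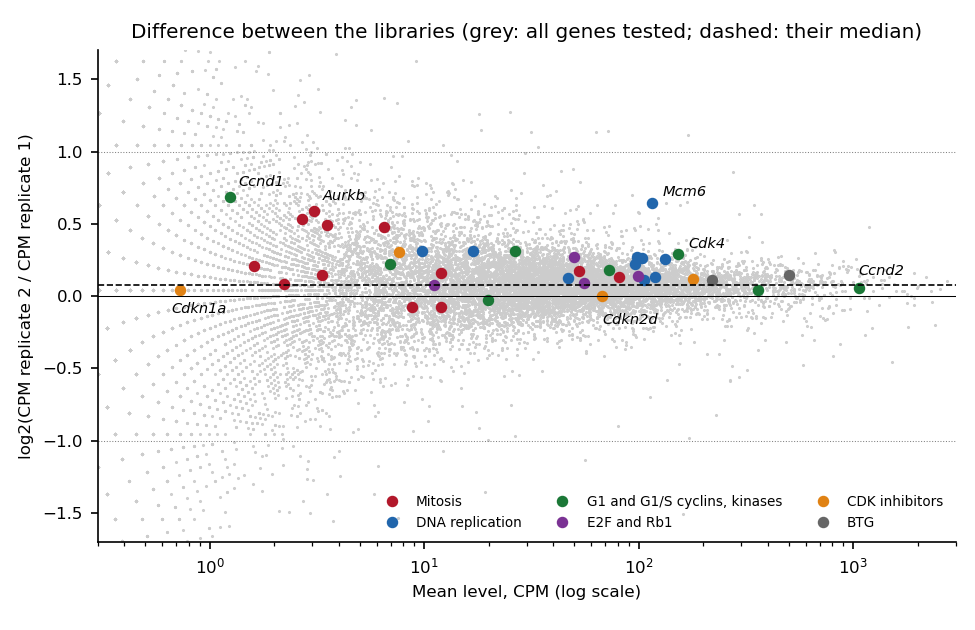
Log2 ratio of replicate 2 to replicate 1 (y axis) against mean CPM (x axis, log scale) for the 40 genes, coloured by list, with all genes tested in grey, their median as a dashed line and 2-fold differences as dotted lines. *Mcm6* stands at 0.65, none of the 40 reaches a 2-fold difference, and 36 of the 40 lie above 0.

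A further 131 genes of the same pathways, in 6 lists, gave the wider setting, and 126 of them were at 1 CPM or more in both libraries. Of the 40 genes, 38 reached this level (95%), *Ccnd1* and *Cdkn1a* being the exceptions, against 49.0% of protein-coding genes. All 18 genes of origin licensing and firing were at that level, led per kb by *Gins4* (23.4 ± 1.63 CPM per kb), *Cdt1* (14.3 ± 0.395) and *Gins2*. All 26 genes of the replication fork and nucleotide supply were too, led by *Rpa1* (31.8 ± 1.49), a subunit of the single-strand binding protein, *Pold2* and *Dut*. All 45 genes listed under the spindle, kinetochore and cytokinesis were detected. *Smc4*, a condensin subunit, was far above the others at 366 and 421 CPM (75.5 ± 7.36 CPM per kb). It was followed by *Cdc25b* (14.9 ± 0.334), a CDK-activating phosphatase also placed in this list, and *Racgap1*. The median of these 45 genes, 1.55 ± 0.172 CPM per kb, was close to the 1.63 ± 0.294 of the 12 mitosis genes, and the medians of the fork list (6.99 ± 0.359) and the origin list (4.33 ± 0.0832) lay well below that of the 10 replication genes.

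Among regulators, all 14 of the E2F, pocket protein and MuvB list were at 1 CPM or more, led by *Rbbp4* (20.5 ± 0.849 CPM per kb), *Rbl2* (p130, the pocket protein of resting cells, 19.0 ± 1.32) and *Tfdp1*. Of 16 other CDK inhibitors and antiproliferative genes, 11 were at that level, led by *Trp53* (50.2 ± 1.08), *Ccng1* (30.8 ± 1.39) and *Foxo1* (30.3 ± 0.659). The remaining INK4 and p57 genes were hardly detected, and these were picked out after their values were seen. *Cdkn2a* had 4 and 3 counts, *Cdkn2b* 2 and 0 counts, and *Cdkn1c* 3 and 3 counts. All 12 genes of CDK activation and checkpoints were at 1 CPM or more, led by *Cdk7* (11.2 ± 0.661), *Anapc1* and *Ccnh*. Of the 131 genes, 127 were tested between the replicates, 0 were called by the exact binomial test at 2-fold, and 23 passed at any fold, a share near the 16.3% of all genes, all higher in replicate 2 and 11 of them in the fork list. With TMM library sizes 13 passed, near the 10.6% of all genes, 11 of them higher in replicate 2 and 8 of those in the fork list.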

How the data were processed

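RNA was sequenced from CD4- mature thymocytes of MHC-II0:CD8ab Tg mice as 2 replicates. The authors prepared NEBNext libraries, obtained single-end reads, aligned them with TopHat2 2.1.1 onto mm10 and deposited raw counts per gene from HTSeq 0.6.1. The annotation and strand setting are not given in the sources used here.

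CPM was computed from the deposited counts as a share of the total on genes, without lines for unassigned reads, and divided by kb of exon (GENCODE M21, GRCm38). Exon unions were the main length, and the longest protein-coding transcript was the alternative. Replicates are given as mean ± SD. Transcripts were compared in 50-base windows. Between replicates, genes with at least 10 counts were tested by exact binomial tests (scipy 1.17.1, statsmodels 0.14.6) after testing on simulated data, and edgeR 4.0.16 and DESeq2 1.42.0 gave alternative tests and library sizes.

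All 40 genes are named, with the 3 highest per kb of each further list. The rule for the 40 genes used no measured value, but genes and lists were chosen with earlier results of these data known.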

Additional observations from a re-analysis of the deposited data

How the results depend on the processing

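Totals without mitochondrial and ribosomal RNA genes raised the median CPM per kb of the G1 list from 6.34 to 7.40, of the E2F and Rb list from 9.77 to 11.4, of the CDK inhibitors from 21.2 to 24.7 and of the BTG genes from 87.7 to 102, since the total divided by is smaller. Lengths of the longest coding transcript gave medians of 29.7 for replication (22.8 with exon unions), 10.5 for the G1 list and 11.3 for the E2F and Rb list, a ratio of replication to mitosis medians of 15.9, and inhibitor to proliferation ratios of 0.271 for sums and 2.77 for medians. Of the 40 genes, the 15 that passed at any fold became 7 with TMM, 8 with DESeq2 size factors and 8 with the reduced totals. With edgeR's exact test 0 passed, but it used about the variation between the same 2 libraries and had little room to call a gene. At 2-fold, 0 of the 40 passed in every setting tried. Over all genes, the exact binomial test called 242 at 2-fold and 2596 at any fold. At 2-fold, 55 were called with at least 100 counts and 60 by edgeR's exact test, and at any fold 1688 were called with TMM (812 higher in replicate 2, against 2146 of 2596 with totals) and 74 by edgeR's exact test. The number of genes with promoter matches counted on the gene strand alone stayed within 1.5 times for each motif. Leaving out a replicate cannot move a mean of 2 values by more than 1 SD, so it says nothing about stability. No paired analysis was possible because the series holds a single group.

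Depth limits *Cdkn1a*, *Ccnd1*, *Ccnb1* and the spindle kinases, where counting intervals overlap between the replicates. The 2 libraries are of 1 genotype and have no control.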
